A study of Mus musculus with 62 samples.

Results

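The myogenic differentiation regulators examined here are 8 mouse genes, *Myod1*, *Myog*, *Cdon*, *Mef2c*, *Mef2d*, *Cdkn1a*, *Klhl40* and *Klhl41*, of the 10476 gene names in the count table. They were chosen by name with earlier results of these data known, so that counts of members called are no comparison of an unselected list with the rest, and each is represented by the 1 of its transcripts with the highest mean count. Together they have 26 of the 23877 transcripts. RNA-seq, which measures mRNA abundance, and Ribo-seq, which sequences the mRNA fragments protected by ribosomes, were examined in C2C12 cells, a line of proliferating myoblasts derived from a female mouse. The cells had been infected with an empty retrovirus (Empty) or with a retrovirus encoding mouse RPL3 (RPL3 OE) or mouse RPL3L (RPL3L OE), with 3 cultures per group and assay, selected with puromycin and kept at low confluence in growth medium. All groups therefore carry the vector and its selection, the inserted cDNA is driven by the vector and not by the native promoter, and the sources used here do not give the number of separate infections. Hearts of 4 *Rpl3l*+/+ and 4 *Rpl3l*-/- male mice at 10 weeks of age were examined in the same assays. In the *Rpl3l*-/- mice exon 2 of *Rpl3l* is deleted in the whole body, and not in cardiomyocytes alone.

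Myoblasts leave the cell cycle and fuse into multinucleated fibres under the control of basic helix-loop-helix transcription factors. MyoD (*Myod1*) marks committed myoblasts and myogenin (*Myog*) the onset of differentiation, and both bind E-boxes, DNA sites of the form CANNTG. CDO (*Cdon*), a cell surface receptor of the immunoglobulin superfamily, promotes MyoD activity, MEF2C and MEF2D are transcription factors that act together with MyoD and myogenin, and p21 (*Cdkn1a*) inhibits cyclin-dependent kinases when myoblasts leave the cell cycle. KLHL40 and KLHL41 are Kelch proteins of the sarcomere that stabilize thin filament proteins of striated muscle. RPL3 is a ribosomal protein close to the peptidyl transferase center, and RPL3L is its paralog in heart and skeletal muscle.

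RNA-seq counts ranged from 14324795 to 29746110 per Empty culture and from 7647102 to 11669868 in the other C2C12 cultures, so that every Empty library was deeper. Ribo-seq counts ranged from 3167026 to 6093268 in C2C12 cells, and all groups overlapped in depth except that each RPL3L OE library was deeper than each Empty library. *Rpl3* was not analysed here, so that the label RPL3 OE was not checked against its own gene. *Rpl3l*, the other gene that the labels name, had RNA-seq counts from 1 to 9 in the 6 Empty and RPL3 OE libraries and from 16434 to 19389 in the RPL3L OE libraries. In hearts, its RNA-seq level ranged from 369.3 to 541 CPM (counts per 1000000 library counts) in *Rpl3l*+/+ mice and from 24.4 to 40.4 CPM in *Rpl3l*-/- mice. Of the myoblast markers, 5 of 9 were in the table and all of these (*Cdh15*, *Des*, *Itga7*, *Megf10* and *Myod1*) had counts in every C2C12 group. Of the cardiomyocyte markers, 6 of 12 were in the table, and *Pln* and *Nppa* had 0 counts in all C2C12 RNA-seq libraries, whereas *Tnnt2* was at 225 CPM in Empty cells. In Ribo-seq of Empty cells, *Nppa* had 39 counts (3.97 CPM) and *Mybpc3* 96 counts (9.21 CPM), while both had 0 RNA-seq counts there. *Pln* had 1 Ribo-seq count in these cells. In the hearts *Myod1* and *Cdh15* mRNAs had 0 counts, but the other myoblast markers had counts. The summed RNA-seq level of the myoblast markers ranged from 1773 to 1965 CPM in *Rpl3l*+/+ hearts and from 722 to 755 CPM in Empty cells. *Des* was at 1702 CPM in *Rpl3l*+/+ hearts and at 256 CPM in Empty cells.

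The letters of the start regions of 3 genes are shown because MyoD and myogenin are E-box proteins, *Myog* is a member that follows MyoD in differentiation, and *Des* was the gene most like *Cdon* across the C2C12 cultures. Each run holds the 250 bases before the start site in RefSeq (build GRCm38.p6, plus strand), with every CANNTG in capitals, and lies at chr1:134289754-134290003 (*Myog*), chr9:35451826-35452075 (*Cdon*) and chr1:75360042-75360291 (*Des*). The start of the *Cdon* transcript used here is the base after its run. A second coding transcript of *Cdon* (ENSMUST00000119129.9) starts further upstream at chr9:35421558, and the counts do not tell the 2 apart.
Myog: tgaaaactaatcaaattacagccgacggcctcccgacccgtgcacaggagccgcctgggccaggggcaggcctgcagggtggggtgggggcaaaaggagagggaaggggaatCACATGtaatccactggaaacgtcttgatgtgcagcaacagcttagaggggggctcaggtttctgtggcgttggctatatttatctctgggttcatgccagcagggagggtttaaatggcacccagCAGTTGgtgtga
Cdon: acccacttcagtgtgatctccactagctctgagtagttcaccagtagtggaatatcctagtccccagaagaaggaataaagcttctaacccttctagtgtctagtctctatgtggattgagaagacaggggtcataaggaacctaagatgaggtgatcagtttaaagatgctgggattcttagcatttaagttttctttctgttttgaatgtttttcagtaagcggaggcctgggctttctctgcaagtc
Des: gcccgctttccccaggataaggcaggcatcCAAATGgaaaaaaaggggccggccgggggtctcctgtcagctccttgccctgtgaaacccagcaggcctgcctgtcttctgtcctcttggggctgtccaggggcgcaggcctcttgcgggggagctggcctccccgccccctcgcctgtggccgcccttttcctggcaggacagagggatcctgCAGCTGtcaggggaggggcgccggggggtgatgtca

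The *Myog* run holds 2 CANNTG sites, which start 138 and 12 bases before the start site, and 1 match to CTANNNNTA, the core of MEF2 sites, 64 bases before it. The *Des* run holds 2 CANNTG sites, 220 and 36 bases before the start site, of which the nearer is CAGCTG, a form of E-box that MyoD is known to bind. No CANNTG and no CTANNNNTA lay in the *Cdon* run, which says only that these letters are not in this window. CANNTG and CAGCTG read the same on both strands and CTANNNNTA was searched on both strands, and every CAGCTG is also a CANNTG. Among 32851 start regions of the same length, 66.2% held CANNTG, 13% held CAGCTG and 19% held CTANNNNTA. RefSeq entries were found for 7 of the 8 members, with 10 start regions. Those of *Klhl40* and *Klhl41* held 3 and 4 CANNTG sites, CAGCTG among them in each, and the first *Mef2c* start region held 2. A match of letters is not a bound site.

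*Myod1* and *Cdon* mRNAs were lower in RPL3 OE cells than in Empty cells, *Cdkn1a* mRNA was lower to a smaller extent, and *Mef2d* mRNA was slightly higher. Of the 6 members that passed the filter of a mean count of at least 10, 4 were called at an adjusted p under 0.05, against 16.1% of the 14432 transcripts tested, of which 8.13% were called higher and 7.96% lower. *Klhl40* and *Klhl41* did not pass the filter. In RPL3L OE cells, only *Cdon* of the 6 members was called against Empty, and it was higher, against a background of 9.26% (4.65% higher and 4.61% lower). Values below are CPM after scaling by the trimmed mean of M-values (TMM), and fold changes are from edgeR's quasi-likelihood test. Its p-values set a difference against the spread between samples of the same group, and the groups of a fit share the estimate of that spread. In these bulk samples, fewer cells that express a gene and less RNA per cell cannot be told apart. Statements that groups do or do not overlap are descriptions, since the share of all transcripts without overlap was not counted.

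*Myod1* (chromosome 7 from 46376474 to 46379099, 3 exons) had RNA-seq levels of 84.0, 69.2 and 75.9 CPM in the Empty cultures. The levels in the RPL3 OE cultures were 48.4, 48.9 and 43.0 CPM, and those in the RPL3L OE cultures were 76.1, 80.4 and 83.6 CPM. All RPL3 OE cultures lay below all others, and the RPL3L OE and Empty cultures overlapped. The log2 fold change was -0.72 (SE 0.063, adjusted p = 1.08e-14) in RPL3 OE cells, which places the mRNA at 60.8% of its Empty level. The log2 fold change of RPL3L OE cells against Empty was 0.07, with a 95% interval from -0.04 to 0.18 (adjusted p = 0.528). The direct comparison of RPL3L OE with RPL3 OE cells gave a log2 fold change of 0.79 (SE 0.067, adjusted p = 3.02e-15).

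Ribosome footprints on *Myod1* were lowest in RPL3 OE cells as well. Their levels were 170.6, 169.5 and 169.3 CPM in Empty cultures, 101, 107.5 and 96.1 CPM in RPL3 OE cultures, and 173, 160.1 and 154.5 CPM in RPL3L OE cultures. The Ribo-seq log2 fold change was -0.73 (SE 0.059, adjusted p = 7.92e-12) in RPL3 OE cells and -0.07 (95% interval from -0.17 to 0.04) in RPL3L OE cells. The background of footprint calls was 10.6% of 13802 transcripts for RPL3 OE (4.7% higher and 5.9% lower) and 11.1% for RPL3L OE (5.38% higher and 5.69% lower). Translation efficiency (TE), the footprint signal relative to mRNA, had a log2 difference of -0.01 for *Myod1* in RPL3 OE cells, with a 95% interval from -0.19 to 0.17.

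*Cdon* (chromosome 9 from 35452076 to 35507651, 19 exons) encodes the CDO receptor. Its RNA-seq levels were 88.6, 75.1 and 82.6 CPM in Empty cultures, 55.0, 61.7 and 54.8 CPM in RPL3 OE cultures, and 101, 99.6 and 101 CPM in RPL3L OE cultures. The RPL3 OE cultures were lowest and the RPL3L OE cultures highest. The log2 fold change against Empty was -0.53 (SE 0.057, adjusted p = 2.69e-11) in RPL3 OE cells and 0.29 (SE 0.052, adjusted p = 4.45e-05) in RPL3L OE cells. Between the overexpressing lines it was 0.82 (SE 0.060, adjusted p = 5.42e-18), which is 1.76-fold.

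The footprint levels of *Cdon* were 58.1, 55.2 and 55.5 CPM in Empty, 35.6, 39.8 and 31.7 CPM in RPL3 OE, and 66.6, 63.4 and 65.9 CPM in RPL3L OE cultures. Footprints fell by 0.63 on the log2 scale in RPL3 OE cells (SE 0.089, adjusted p = 2.33e-06). The Ribo-seq log2 fold change of 0.21 in RPL3L OE cells did not pass the threshold (adjusted p = 0.0732). With library totals in place of TMM it passed, at 0.25 (adjusted p = 0.0468). The TE of *Cdon* differed from Empty by -0.11 (95% interval from -0.32 to 0.11) in RPL3 OE cells and by -0.08 (from -0.27 to 0.11) in RPL3L OE cells.

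The plots of RNA-seq and Ribo-seq levels by culture show these orders for all 8 members.

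**Figure D1:**
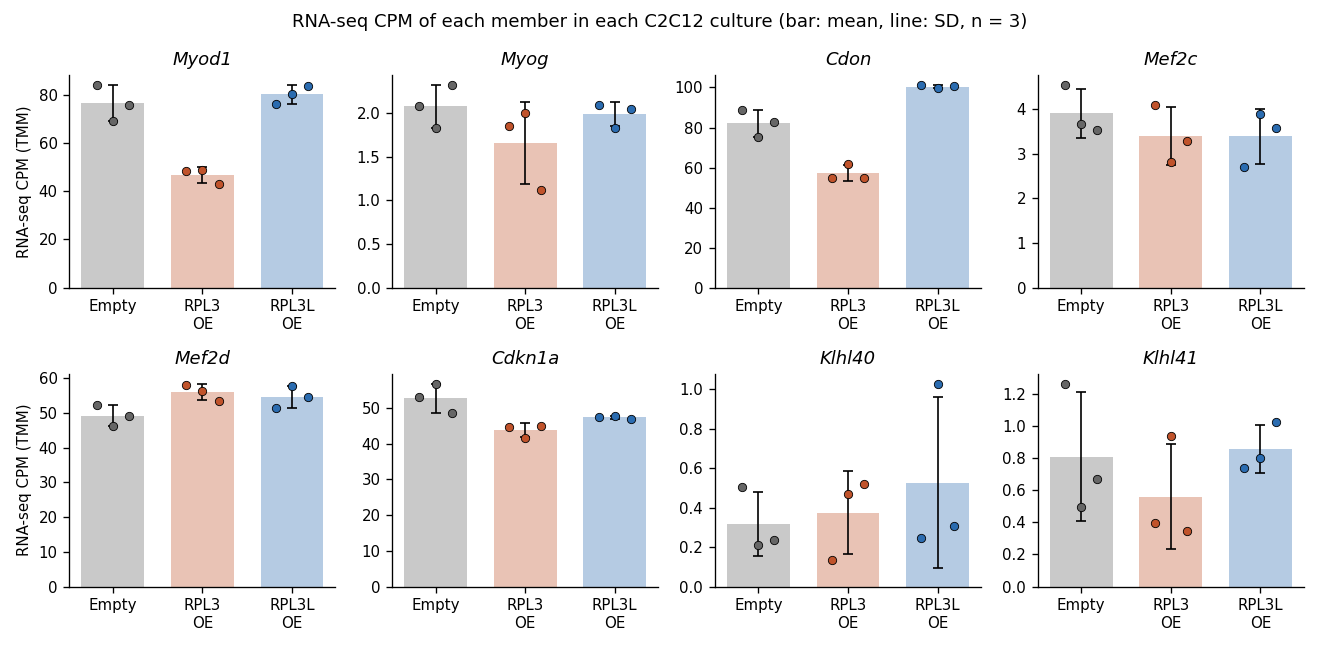
RNA-seq level (TMM-scaled CPM, vertical axis from 0) of each member in the 3 cultures of each C2C12 group, with 1 point per culture, bars for the mean and lines for the SD. The RPL3 OE points of *Myod1*, *Cdon* and *Cdkn1a* lie below all Empty points, and the RPL3L OE points of *Cdon* lie above them.

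**Figure D2:**
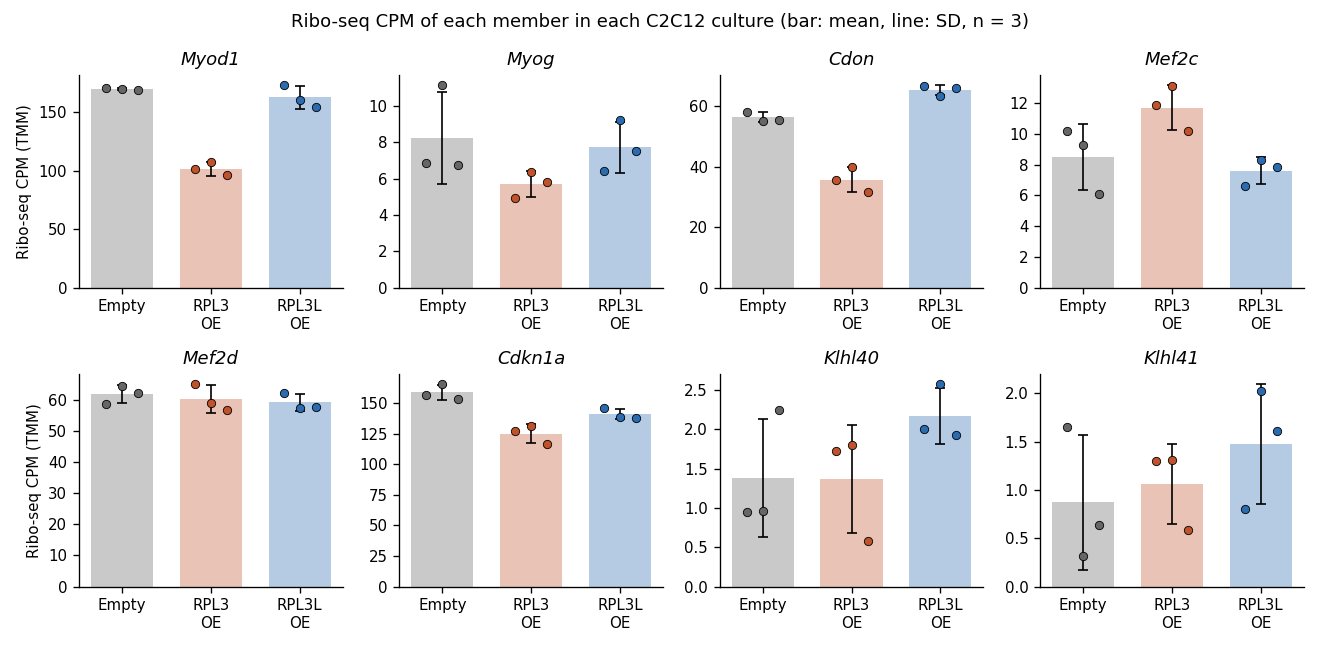
Ribo-seq level (TMM-scaled CPM, vertical axis from 0) of each member in the same groups, with 1 point per culture, bars for the mean and lines for the SD. The RPL3 OE points of *Myod1*, *Myog*, *Cdon* and *Cdkn1a* lie below all Empty points, whereas those of *Mef2c* reach from 10.2 to 13.1 CPM and lie above all RPL3L OE points.

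The transcript of *Cdon* annotated for nonsense-mediated decay (ENSMUST00000137200.8), which has its own counts, also had a lower RNA-seq level in RPL3 OE cells, with a log2 fold change of -0.73 (SE 0.21, adjusted p = 0.00833). Its change in RPL3L OE cells was -0.06 (adjusted p = 0.889). The 4 transcripts of *Cdkn1a* have the same coding sequence length of 477 bases and gave nearly the same fold changes in C2C12 cells, so that they count as 1 measurement.

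*Cdkn1a* (chromosome 17 from 29097900 to 29099577) had RNA-seq levels of 53.03, 56.52 and 48.45 CPM in Empty, 44.7, 41.5 and 44.9 CPM in RPL3 OE, and 47.4, 47.8 and 46.9 CPM in RPL3L OE cultures. Every culture of either overexpressing line lay below every Empty culture, and the RPL3 OE cultures were lowest. The log2 fold change was -0.26 (SE 0.065, adjusted p = 0.00283) in RPL3 OE cells and -0.14 (95% interval from -0.27 to -0.02, adjusted p = 0.175) in RPL3L OE cells. Footprints on *Cdkn1a*, at 156.7, 166 and 153.9 CPM in Empty cultures, were at 127, 131.7 and 117 CPM in RPL3 OE and at 145.8, 139.1 and 138.1 CPM in RPL3L OE cultures. Their log2 fold change was -0.33 (SE 0.056, adjusted p = 6.79e-05) in RPL3 OE cells and -0.17 (SE 0.054, adjusted p = 0.0336) in RPL3L OE cells. The second of these calls was lost with DESeq2 (adjusted p = 0.12), with library totals, with the looser count filter and without Empty replicate 1 or 2 or RPL3L OE replicate 2 or 3.

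*Myog* had few reads in these growing cells. RNA-seq counts were 33, 26 and 69 in Empty cultures, 14, 17 and 13 in RPL3 OE cultures, and 17, 16 and 20 in RPL3L OE cultures, which correspond to 2.08, 1.83 and 2.32 CPM, to 1.85, 1.99 and 1.12 CPM, and to 2.09, 1.83 and 2.05 CPM. The groups overlapped, and the log2 fold change in RPL3 OE cells was -0.40 with a 95% interval from -0.99 to 0.19 (adjusted p = 0.418). Footprint levels were 6.85, 11.2 and 6.74 CPM in Empty, 4.97, 6.38 and 5.81 CPM in RPL3 OE, and 6.42, 9.21 and 7.55 CPM in RPL3L OE cultures. The footprint change of -0.49 in RPL3 OE cells did not pass the threshold (SE 0.24, adjusted p = 0.213), and without Empty replicate 2 it was -0.23. Counts of this size leave changes within the interval undetectable.

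*Mef2d*, the more abundant of the MEF2 genes here, had RNA-seq levels of 52.2, 46.3 and 49.2 CPM in Empty, 58.2, 56.4 and 53.4 CPM in RPL3 OE, and 51.3, 57.8 and 54.7 CPM in RPL3L OE cultures. The log2 fold change was 0.18 (SE 0.062, adjusted p = 0.0365) in RPL3 OE cells and 0.15 (adjusted p = 0.134) in RPL3L OE cells. The call in RPL3 OE cells was lost with DESeq2 (adjusted p = 0.086), with library totals (adjusted p = 0.0521) and in 5 fits without 1 culture, namely without Empty replicate 2 or 3 or any 1 of the RPL3 OE replicates. Footprints on *Mef2d* ranged from 56.6 to 65.2 CPM over all 9 cultures with overlapping groups, and their log2 fold change was -0.03 in RPL3 OE and -0.06 in RPL3L OE cells.

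*Mef2c* had the largest TE difference of the members between RPL3 OE and Empty cells, which did not pass the threshold. RNA-seq levels were 4.54, 3.66 and 3.53 CPM in Empty, 4.09, 2.82 and 3.27 CPM in RPL3 OE, and 2.71, 3.88 and 3.58 CPM in RPL3L OE cultures, with all groups overlapping. Footprint levels were 10.2, 9.26 and 6.09 CPM in Empty, 11.9, 13.1 and 10.2 CPM in RPL3 OE, and 6.62, 8.29 and 7.88 CPM in RPL3L OE cultures. Footprints in RPL3L OE cells were lower than in RPL3 OE cells, with a log2 fold change of -0.64 (SE 0.18, adjusted p = 0.0105), whereas the mRNA differed by 0.02 (95% interval from -0.48 to 0.52). The footprint call was lost with DESeq2 (adjusted p = 0.0769), without RPL3 OE replicate 2 and without RPL3L OE replicate 1. The counts behind it were 55, 80 and 35 in RPL3 OE and 33, 45 and 49 in RPL3L OE cultures. Against Empty, the footprint change in RPL3 OE cells was 0.46 (SE 0.20, adjusted p = 0.139). The TE of *Mef2c* differed by 0.66 (SE 0.29, unadjusted p = 0.0277 and adjusted p = 0.564 from edgeR) in RPL3 OE cells against Empty and by -0.67 (SE 0.31, adjusted p = 0.517) in RPL3L OE against RPL3 OE cells.

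Across the comparison of RPL3L OE with RPL3 OE cells, 2 of the 6 members tested were called in RNA-seq, *Myod1* and *Cdon*, against a background of 27% (13% higher and 14.1% lower). In Ribo-seq, 4 of 6 were called, *Myod1*, *Cdon* and *Cdkn1a* higher and *Mef2c* lower, against 18.8% (9.57% higher and 9.27% lower). The footprint differences were 0.66 for *Myod1*, 0.84 for *Cdon* and 0.16 for *Cdkn1a*, and the last of these was lost with DESeq2 (adjusted p = 0.198) and in 4 fits without 1 culture. No member was called for TE by edgeR in any of the 3 comparisons. At an unadjusted p under 0.05 there were 2 members for RPL3 OE against Empty (*Mef2c* and *Mef2d*), 1 for RPL3L OE against Empty (*Mef2d*) and 1 for RPL3L OE against RPL3 OE (*Mef2c*), and DESeq2 called 0 in each. The backgrounds of TE calls were 0.052%, 2.09% and 0.305% of 13457 transcripts, respectively. At an unadjusted p under 0.05 from edgeR, the backgrounds were 1055, 2057 and 1216 of these transcripts. The comparisons share the Empty or the RPL3 OE cultures and are not independent of each other.

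**Figure D3:**
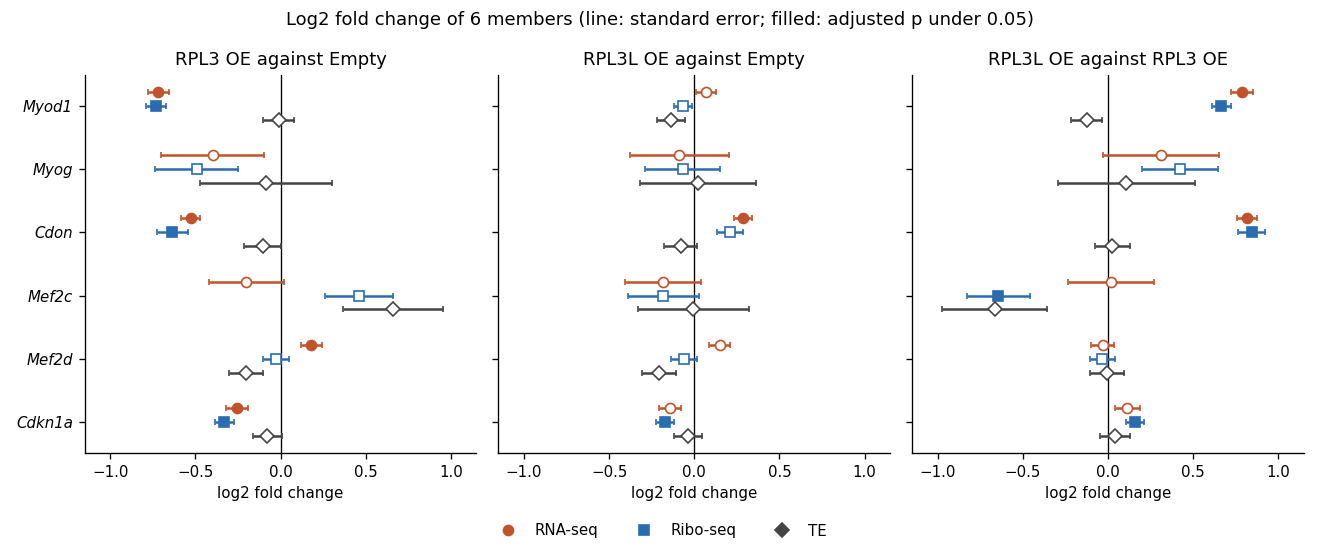
Log2 fold change (horizontal axis) of the 6 members tested, in RNA-seq (circles), Ribo-seq (squares) and TE (diamonds), for the 3 comparisons, with lines for the standard error and filled symbols for an adjusted p under 0.05. For *Myod1* and *Cdon* the RNA-seq and Ribo-seq symbols lie together and away from 0 in RPL3 OE cells while TE lies near 0. For *Mef2c* the Ribo-seq and TE symbols lie apart from RNA-seq in RPL3 OE against Empty and in RPL3L OE against RPL3 OE. In RPL3L OE against Empty its RNA-seq and Ribo-seq symbols lie together, and its TE symbols are open throughout.

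*Klhl40* and *Klhl41* were near the limit of detection in C2C12 cells. RNA-seq counts of *Klhl40* were 8, 3 and 7 in Empty, 1, 4 and 6 in RPL3 OE, and 2, 9 and 3 in RPL3L OE cultures. Those of *Klhl41* were 20, 7 and 20 in Empty, 3, 8 and 4 in RPL3 OE, and 6, 7 and 10 in RPL3L OE cultures. As levels the groups overlapped for *Klhl41*, from 0.492 to 1.26 CPM in Empty and from 0.345 to 1.02 CPM in the others. Ribo-seq counts of *Klhl40* were 4, 3 and 7 in Empty, 8, 11 and 2 in RPL3 OE, and 10, 14 and 12 in RPL3L OE cultures, and those of *Klhl41* ranged from 1 to 11 over the 9 cultures. As CPM, the RPL3L OE cultures lay above the RPL3 OE cultures for *Klhl40* footprints and overlapped with them for *Klhl41*, in both cases on few counts. Both genes were tested only in the alternative with a total count of at least 10, where neither was called in C2C12 cells.

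On a scale of CPM by library total per kilobase of coding sequence, used here to set genes side by side, *Cdkn1a* had the highest RNA-seq level of the members in Empty cells, at 110.5 ± 8.09 CPM per kb (SD, n = 3). *Myod1* followed at 80.1 ± 8.35, *Mef2d* at 32.0 ± 2.14 and *Cdon* at 21.9 ± 1.95, and each of these ranges was clear of the next. *Myog* at 3.09 ± 0.376 and *Mef2c* at 2.69 ± 0.397 CPM per kb overlapped, as did *Klhl41* at 0.446 ± 0.225 and *Klhl40* at 0.171 ± 0.0888. In Ribo-seq the order began the same way, with *Cdkn1a* at 328 ± 10.0, *Myod1* at 175 ± 3.33, *Mef2d* at 39.5 ± 1.21 and *Cdon* at 14.8 ± 0.642 CPM per kb, but *Cdon* and *Myog* (12.1 ± 3.53) overlapped.

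The ratio of mean Ribo-seq CPM to mean RNA-seq CPM, a level of TE, differed widely between the members. In Empty cells it was 3.98 for *Myog* (percentile 98.1 of 5404 genes), 3.02 for *Cdkn1a* (percentile 96.0), 2.22 for *Myod1* (percentile 89.5) and 2.18 for *Mef2c* (percentile 88.9), against a median of 1.20 over all genes. *Mef2d* at 1.26 lay near that median, and *Cdon* at 0.685 lay at percentile 18.3. In RPL3 OE and RPL3L OE cells the ratio of *Cdon* was 0.624 and 0.65 and that of *Myod1* was 2.17 and 2.03. The ratio of *Mef2c* was 3.45 in RPL3 OE cells, at percentile 97.4. These ratios are a description across genes, and those of *Myog* and *Mef2c* rest on few counts. The mean footprint levels of *Myog* and *Mef2c* in Empty cells were 8.25 and 8.50 CPM. Beside them, *Mybpc3* had footprints at 9.21 CPM with 0 RNA-seq counts in these cells. Whether such footprints add to the ratios was not tested.

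Of a list of genes of the CDO complex and of cell surface signalling more widely, 10 of 21 were in the table and tested. In RPL3 OE cells 3 mRNAs were lower and 1 was higher than in Empty, beside 7.96% and 8.13% of all transcripts tested. The median log2 fold change of the list was -0.01. *Cdh15*, which encodes M-cadherin, a myoblast adhesion protein, fell by 0.44 on the log2 scale (SE 0.043, adjusted p = 1.47e-12), and *Itga7*, which encodes a laminin receptor subunit, fell by 0.22. *Smo*, which encodes the Hedgehog signal transducer, fell by 0.20, and *Itgb1*, an integrin subunit gene, rose by 0.17. With RPL3L OE, 4 mRNAs were higher and 0 lower than in Empty, beside 4.65% and 4.61% of all transcripts, with a median of 0.10. The largest increases were those of *Itga7* at 0.35, *Cdh15* at 0.32 and *Itgb1* at 0.13. Against RPL3 OE cells 4 were higher and 0 lower, beside 13% and 14.1% of all transcripts, with *Cdh15* at 0.76, *Itga7* at 0.57 and *Smo* at 0.31. In Ribo-seq the counts were 1 higher and 2 lower, 5 higher and 0 lower, and 5 higher and 1 lower in the 3 comparisons. The shares of all transcripts called there were 10.6%, 11.1% and 18.8%, respectively. *Bnip2*, which encodes a scaffold protein that binds CDO, had a higher TE in RPL3L OE cells than in Empty cells, with a log2 difference of 0.38 (SE 0.077, adjusted p = 0.00292). No other gene of this list passed the threshold for TE.

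Genes for products of muscle fusion and differentiation, several of which are known targets of MyoD and myogenin, form a further list. It was chosen with earlier results of these data known, so its counts are no comparison of an unselected list with the rest. Whether MyoD or myogenin has a part in its changes was not tested. Of 33 listed genes 21 were in the table and 17 were tested. In RPL3 OE cells 10 mRNAs were called lower and 0 higher than in Empty, beside 7.96% and 8.13% of all transcripts tested. The median log2 fold change was -0.48 over the 17 genes and 0.00 over all transcripts tested. The largest decreases were those of *Tnnt3*, a gene for fast skeletal troponin T, by 0.94 (SE 0.20, adjusted p = 2.21e-04), and of *Chrng* and *Chrnd*, genes for acetylcholine receptor subunits, by 0.87 (adjusted p = 0.00879) and 0.81 (adjusted p = 2.78e-15). In RPL3L OE cells, with a median of 0.09 and beside 4.65% and 4.61% of all transcripts, 3 were higher and 0 lower than in Empty. They were *Rapsn*, which encodes a protein that clusters acetylcholine receptors, at 0.30 (adjusted p = 0.00828), *Jam2*, a gene for a junctional adhesion protein, at 0.26, and *Des*, which encodes the intermediate filament protein desmin, at 0.19. Against RPL3 OE cells 11 were higher and 0 lower, beside 13% and 14.1% of all transcripts, with a median of 0.61. They were led by *Tnnt3* at 1.35, *Chrng* at 0.96 and *Musk*, a receptor kinase gene of the neuromuscular junction, at 0.88. With DESeq2 and with library totals, checked after seeing the data, the counts were the same in all 3 comparisons.

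**Figure D4:**
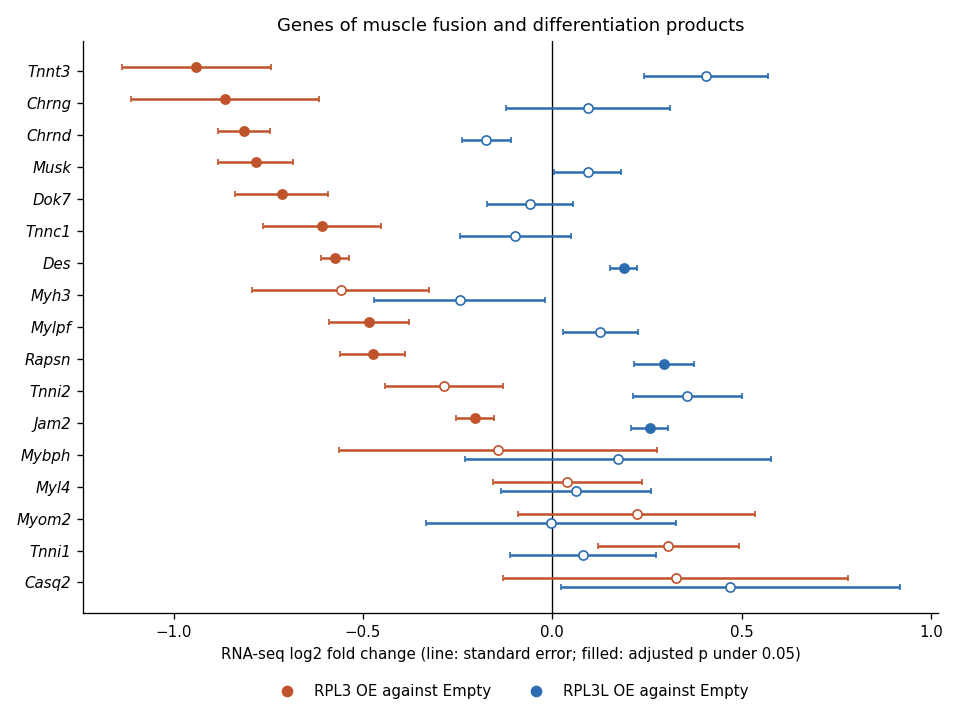
RNA-seq log2 fold change (horizontal axis) of the 17 tested genes of fusion and differentiation products in RPL3 OE and RPL3L OE cells against Empty, ordered by the change in RPL3 OE cells, with lines for the standard error and filled circles for an adjusted p under 0.05. The 10 filled circles of RPL3 OE lie between -0.94 and -0.20, and the 3 of RPL3L OE lie between 0.19 and 0.30.

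Footprints of the same list, of which 18 genes were tested, were lower for 7 and higher for 0 in RPL3 OE cells. Over all transcripts, 5.9% were called lower and 4.7% higher. The median log2 fold change of the list was -0.57. *Chrng* fell by 1.08 (adjusted p = 0.0107), *Chrnd* by 0.97 and *Dok7*, which encodes an activator of the kinase MuSK, by 0.73. In RPL3L OE cells 3 were higher and 1 lower than in Empty, beside 5.38% and 5.69% of all transcripts. These were *Myom2* at 1.03 (SE 0.35, adjusted p = 0.0489), *Mylpf* at 0.42, *Jam2* at 0.28 and *Chrnd* at -0.29. Against RPL3 OE cells 10 were higher and 0 lower, beside 9.57% and 9.27% of all transcripts, with *Tnnt3* at 1.16, *Tnnc1* at 0.97 and *Rapsn* at 0.89.

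Type I collagen genes, which are fibroblast markers, differed between the groups as well. The summed RNA-seq level of the fibroblast markers, of which 6 of 7 were in the table and 0 were without counts, ranged from 1112 to 1170 CPM in Empty, from 1946 to 1961 CPM in RPL3 OE and from 1247 to 1294 CPM in RPL3L OE cultures. Of it, *Col1a1* and *Col1a2*, genes for type I collagen, made up 339 and 792 CPM in Empty and 764 and 1174 CPM in RPL3 OE cells, whereas *Dcn*, which encodes decorin, was at 6.39 and 6.51 CPM, and *Lum* at 0.088 and 0.111 CPM. *Pdgfra*, a receptor gene, went the other way, from 3.43 CPM in Empty to 2.37 CPM in RPL3 OE cells, and *Postn* was at 3.82 and 4.94 CPM. The summed level of the myoblast markers ranged from 722 to 755 CPM in Empty, from 519 to 567 CPM in RPL3 OE and from 873 to 890 CPM in RPL3L OE cultures. This sum holds *Myod1*, *Des*, *Cdh15* and *Itga7*, which are described above, and *Megf10*, which was at 34.8 CPM in Empty and 36.5 CPM in RPL3 OE cells. Skeletal muscle fibre markers, 7 of 14 in the table, summed to 30.9 to 34.5 CPM in Empty, 22.6 to 23.7 CPM in RPL3 OE and 37.25 to 40.04 CPM in RPL3L OE cultures, and *Myh2* and *Myh4* had 0 counts in RPL3L OE cells. The part of the mix of cells in the members' changes was not tested.

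Inhibitors of myogenic differentiation did not move in a single direction. Of 25 listed genes 14 were in the table and 10 were tested, of which 2 were higher and 2 lower in RPL3 OE cells. *Bhlhe40*, which encodes a repressor that binds E-boxes, rose by 0.40 (SE 0.066, adjusted p = 2.34e-06) and *Zeb1*, a repressor gene, by 0.21. *Id1* and *Id3*, whose proteins keep E proteins away from MyoD, fell by 0.57 each (adjusted p = 7.43e-07 and 8.42e-09). In RPL3L OE cells 3 were higher than in Empty, *Bhlhe40* at 0.33, *Hes1*, a Notch target gene, at 0.25, and *Tgfb1*, a growth factor gene, at 0.16, and 0 were lower. Against RPL3 OE cells, *Id1* (0.47), *Id3* (0.39) and *Tgfb1* (0.26) were higher and *Zeb1* (-0.29) was lower. The RNA-seq shares of all transcripts called were 16.1% and 9.26% for RPL3 OE and RPL3L OE against Empty. For RPL3L OE against RPL3 OE the share was 27%. Footprints on *Id1* and *Id3* were lower than in Empty in both lines, by 0.74 and 0.66 in RPL3 OE and by 0.46 and 0.44 in RPL3L OE cells, and they were higher in RPL3L OE than in RPL3 OE cells, by 0.28 and 0.22.

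Of the genes of cell cycle exit and p53 targets, the group to which *Cdkn1a* belongs, 14 of 28 were in the table and 12 were tested. In RPL3 OE cells, where 16.1% of all transcripts were called (7.96% lower), 1 mRNA was lower and 0 higher, that of *Ccnd3*, the gene for cyclin D3, which fell by 0.23 (SE 0.052, adjusted p = 4.83e-04). With RPL3L OE, 1 was higher and 0 lower, that of *Plk2*, a polo-like kinase gene, at 0.52 (adjusted p = 3.66e-11). Against RPL3 OE cells 4 were higher and 0 lower, led by *Pmaip1* at 0.52, *Plk2* at 0.42 and *Ccnd3* at 0.37. The RNA-seq shares of all transcripts called for RPL3L OE were 9.26% against Empty and 27% against RPL3 OE. In Ribo-seq 4 were lower and 0 higher in RPL3 OE cells, beside 5.9% of all transcripts called lower, led by *Ccnd3* at -0.46, *Pmaip1*, a gene for a BH3-only protein, at -0.46 and *Trp53*, the p53 gene, at -0.24. *Trp53* footprints were also lower in RPL3L OE cells, at -0.17 (adjusted p = 0.0156). In RPL3L OE cells against Empty, 1 gene was higher and 1 lower in Ribo-seq, and against RPL3 OE cells 4 were higher and 1 lower. The shares of all transcripts called there were 11.1% and 18.8%.

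Other myogenic transcription factors and cofactors were represented by 7 of 24 listed genes, 5 of them tested. In RPL3 OE cells 1 mRNA was higher, beside 8.13% of all transcripts. It was that of *Carm1*, an arginine methyltransferase gene, at 0.17 (adjusted p = 0.00437). *Carm1* mRNA was higher in RPL3L OE cells too, at 0.20, where its TE was lower by 0.27 (SE 0.071, adjusted p = 0.0284). Against RPL3 OE cells *Ep300*, which encodes an acetyltransferase that binds MyoD, was higher at 0.29 and *Tcf4*, an E protein gene, lower at -0.32. There 27% of all transcripts were called. In Ribo-seq, *Rbpj* was higher (0.24) and *Ep300* lower (-0.29) in RPL3 OE cells. Of the Kelch and thin filament genes, 9 of 20 were in the table and 5 were tested. Over all transcripts, RNA-seq calls against Empty were 16.1% for RPL3 OE and 9.26% for RPL3L OE. *Tmod1*, which encodes the thin filament capping protein tropomodulin, fell by 1.47 (SE 0.25, adjusted p = 6.60e-06) in RPL3 OE cells and by 0.67 (adjusted p = 0.0461) in RPL3L OE cells, and *Klhl24* fell by 0.60 in RPL3 OE cells. *Klhl22* and *Klhl30* were higher in RPL3L OE cells, at 0.33 and 0.25.

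The genes whose centred log2 CPM lay closest to that of each called member over the 9 C2C12 RNA-seq libraries were compared by root mean square difference among genes with a mean of at least 100 counts. For *Myod1* they were *Fbln1* (difference 0.071), *Sytl2* (0.088) and *Tead2* (0.090), where the median over 4552 genes was 0.37. For *Cdon* they were *Des* (0.080), *Ptgs1* (0.084) and *Mex3b* (0.084), with a median of 0.36. *Des* levels were 254.6, 255 and 258.7 CPM in Empty, 173, 178.6 and 165 CPM in RPL3 OE, and 285.6, 301 and 289 CPM in RPL3L OE cultures. That the groups have the same order as for *Cdon* follows from the choice of *Des* by its likeness in these libraries. *Des* is also part of the myoblast markers and of the fusion and differentiation products above. For *Mef2d* the closest genes were *Golga3*, *Tyw1* and *Srpr* (0.045 to 0.050) and for *Cdkn1a* *Pnpla2*, *Pop1* and *Mlx* (0.050 to 0.060), but with medians of only 0.15 and 0.16 these members moved little themselves. The likeness is a description of libraries that share 3 groups.

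In the heart, *Myod1* and *Myog* mRNAs had 0 RNA-seq counts in all 8 libraries. The Empty level of *Myod1* was at least 693-fold higher than the level that 3 counts over the 4 *Rpl3l*+/+ hearts would give, and that of *Myog* at least 18.8-fold. Heart Ribo-seq gave 0 counts for *Myog* and from 0 to 3 counts per library for *Myod1*. *Cdon* mRNA was at 1.00 ± 0.341 CPM per kb (SD, n = 4) in *Rpl3l*+/+ hearts and its footprints at 3.93 ± 1.01 CPM per kb, or 0.0458 and 0.266 times the Empty C2C12 levels. *Cdkn1a* was also lower in the heart, at 0.172 times in RNA-seq and 0.138 times in Ribo-seq. Hearts and cultures were not tested against each other.

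*Klhl41* had the highest level of the members in *Rpl3l*+/+ hearts, at 47.6 ± 2.57 CPM per kb in RNA-seq and 83.0 ± 8.88 in Ribo-seq. These are 106.9 and 174 times the level in Empty C2C12 cells, where it rests on 47 and 10 counts in all. The RNA-seq ranges of *Klhl41* and *Mef2d* (38.4 ± 13.9) overlapped. *Klhl40* was at 9.78 ± 1.10 and 22.3 ± 2.22 CPM per kb, or 57.4 and 30.5 times the level in Empty C2C12 cells, where it rests on 18 and 14 counts in all. *Mef2c* was at 2.11 times the C2C12 level in RNA-seq and 7.51 times in Ribo-seq. Its ratio of Ribo-seq to RNA-seq CPM in *Rpl3l*+/+ hearts was 7.65, at percentile 97.8 of 5270 genes with a median of 1.48. *Mef2d* was at 1.20 and 1.67 times the C2C12 levels.

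**Figure D5:**
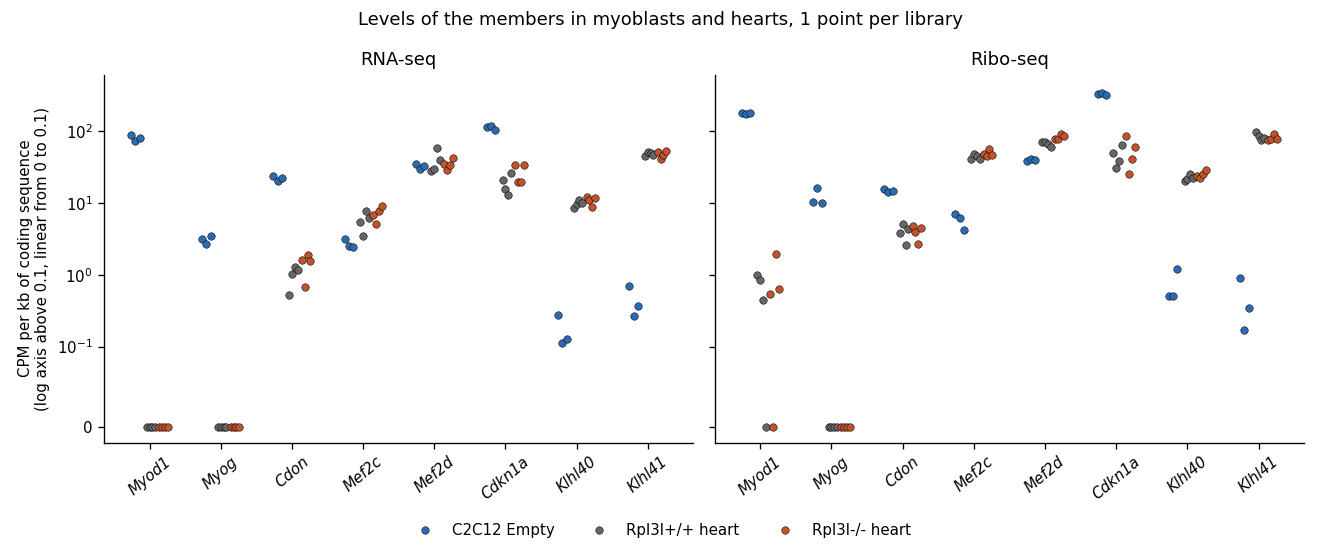
RNA-seq (left) and Ribo-seq (right) level of each member in CPM per kb of coding sequence (vertical axis, log scale above 0.1 and linear from 0 to 0.1) in Empty C2C12 cells and in *Rpl3l*+/+ and *Rpl3l*-/- hearts, with 1 point per library. *Klhl40* and *Klhl41* lie higher in all hearts than in all cultures, and *Myod1*, *Myog*, *Cdon* and *Cdkn1a* lie lower.

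Between *Rpl3l*-/- and *Rpl3l*+/+ hearts, 0 of the 6 members tested were called by edgeR in RNA-seq, Ribo-seq or TE, against backgrounds of 0.013% of 15394, 0.748% of 12695 and 0% of 12483 transcripts. At an unadjusted p under 0.05 there were 0, 1 and 1 members, *Mef2d* in both of the latter, and DESeq2 called 0 members in each assay. Over all transcripts, RNA-seq, Ribo-seq and TE gave 354 of 15394, 2069 of 12695 and 796 of 12483 at an unadjusted p under 0.05 from edgeR. DESeq2 called 22 transcripts for TE. The footprints of *Mef2d* were at 105.8, 105.5, 98.9 and 90.5 CPM in *Rpl3l*+/+ and at 116, 118, 142 and 136 CPM in *Rpl3l*-/- hearts. Their log2 fold change of 0.35 did not pass the threshold (SE 0.098, unadjusted p = 0.00287 and adjusted p = 0.108 from edgeR). Its RNA-seq levels were 43.8, 47.2, 81.3 and 60.4 CPM against 54.0, 47.5, 48.4 and 62.7 CPM, and its TE difference was 0.49 (SE 0.21, adjusted p = 0.742).

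The other members did not pass the threshold in the hearts. *Klhl41* had a log2 fold change of 0.00 (95% interval from -0.23 to 0.23) in RNA-seq and of -0.02 (from -0.22 to 0.18) in Ribo-seq, with the narrowest RNA-seq interval among the members. *Klhl40* had 0.15 (from -0.17 to 0.47) and 0.19 (from -0.07 to 0.44), *Mef2c* 0.31 (from -0.14 to 0.77) and 0.20 (from -0.03 to 0.42), *Cdkn1a* 0.42 (from -0.09 to 0.94) and 0.25 (from -0.34 to 0.84), and *Cdon* 0.47 (from -0.19 to 1.13) and 0.05 (from -0.39 to 0.49). The Ribo-seq value of *Cdkn1a* was -0.09 without *Rpl3l*-/- replicate 1 and 0.52 without *Rpl3l*-/- replicate 2, and that of *Cdon* was -0.10 without *Rpl3l*+/+ replicate 3. The *Rpl3l*-/- RNA-seq libraries held from 10930435 to 22425296 counts and the *Rpl3l*+/+ libraries from 3594696 to 14041366. Of the lists above, *Ccnd3* footprints were higher (0.59, adjusted p = 0.0322) and *Itgb1* footprints lower (-0.38, adjusted p = 0.0363) in *Rpl3l*-/- hearts.

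Disome-seq, which sequences the fragments protected by pairs of collided ribosomes, held from 39016 to 175747 counts per heart. *Klhl41* had 60 disome counts in all over *Rpl3l*+/+ hearts and 80 over *Rpl3l*-/- hearts, or from 23.4 to 319 CPM and from 179 to 291 CPM per heart, so that the genotypes overlapped. The other members had at most 22 counts per genotype, and *Myog* had 0.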

How the data were processed

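The authors deposited whole-number read counts per transcript, with no normalization, for each assay. RNA-seq was made from poly(A) RNA with a directional kit, and Ribo-seq reads were processed with cutadapt, STAR (multiple mappings allowed), removal of duplicate molecules and featureCounts; versions, the strand setting and separate RNA-seq processing are not given in the sources used here. Each transcript has 2 identical lines, of which 1 was used. Of 23877 transcripts, 23662 matched GENCODE M21, all on the plus strand, and 215 did not; genes on the minus strand were not analysed here. In 546 of 547 genes tested the counts followed the coding sequence. Every replicate pair differed beyond sampling noise. Per-library totals give the depth, and intervals cover normal error of the fit at the 95% level.

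Counts with a mean of at least 10 were tested with edgeR 4.0.16 (R 4.3.3; quasi-likelihood test, TMM, Benjamini-Hochberg adjustment over all transcripts tested, two-sided), with TE as the interaction of group and assay. DESeq2 1.42.0, library totals, other count minimums (a mean of 50, a total of 10), 1 transcript per gene, 2 groups alone, the replicate number as a block and each library left out were alternatives. The edgeR tests were checked on data simulated under the count model that edgeR assumes, which does not show whether these libraries follow it. Figures and levels were made with Python 3.11.15. The members, lists and motifs were chosen with earlier results of these data known. The members are named in every comparison, and of each list at most the 3 largest called changes in each direction; genes most like a member are the 3 closest among those with a mean of at least 100 counts.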

Additional observations from a re-analysis of the deposited data

Results flagged for a closer look

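In 3 of 31 groups of 4 hearts, 1 heart stood apart from the other 3 by the gap test, and chance flags about 1 group in 20. *Cdon* RNA-seq was at 2.005 CPM (7 counts) in *Rpl3l*+/+ heart 1 and from 4.036 to 4.418 CPM in the other 3. *Klhl40* RNA-seq was at 16.04 CPM (56 counts) in the same heart and from 18.67 to 18.99 CPM in the other 3. *Klhl40* RNA-seq was at 15.19 CPM (362 counts) in *Rpl3l*-/- heart 3 and from 21.43 to 22.35 CPM in the other 3.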

How the results depend on the processing

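Of 1094 values of members under the alternatives, 1071 kept their direction and their side of the threshold or were not called in either fit, 22 called values lost the call, 1 gained it and 0 called values changed direction. Against 1 member called in Ribo-seq for RPL3L OE against Empty (*Cdkn1a*), 0 were called with a total count of at least 10 and with DESeq2, and from 0 to 1 without 1 culture, with 0 without Empty replicate 1 or 2 or RPL3L OE replicate 2 or 3. Against 4 in Ribo-seq for RPL3L OE against RPL3 OE, 2 were called with DESeq2 and from 2 to 4 without 1 culture, with 2 without RPL3L OE replicate 1. For RPL3 OE against Empty in RNA-seq, 3 to 4 members were called without 1 culture. The calls of *Myod1* and *Cdon* for RPL3 OE, and of *Cdon* mRNA for RPL3L OE, held under all alternatives that gave a value. In the list of fusion and differentiation products, 9 to 10 mRNAs were lower and 0 higher in RPL3 OE cells over its alternatives, and 2 to 3 were higher in RPL3L OE cells, where 1 was lower without Empty replicate 2 and without RPL3L OE replicate 1.

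The replicate block changed none of the members' counts (4, 1 and 2 in RNA-seq, 3, 1 and 4 in Ribo-seq). The numbers were not taken to pair the samples, since not every pair exceeded a correlation of 0.1. Between groups, 0 of 9 C2C12 pairs did in either assay, 0 of 4 heart pairs in RNA-seq and 2 of 4 in Ribo-seq. Between RNA-seq and Ribo-seq libraries of the same number, 2 of 9 in C2C12 cells and 6 of 8 in hearts did (from -0.776 to 0.778), and with the block 0 members were called for heart TE, as without it.

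Over all transcripts, counts moved by more than 1.5 times as follows. With DESeq2, calls for RPL3L OE against Empty in RNA-seq were 874 against 1336, those in Ribo-seq for the 3 C2C12 comparisons 718, 675 and 1220 against 1463, 1529 and 2601, those for TE in RPL3 OE 21 against 7, and those in hearts 11 against 2, 185 against 95 and 22 against 0 for RNA-seq, Ribo-seq and TE. With 1 transcript per gene, fewer were tested, and 1008, 566 and 1591 were called in RNA-seq, 658, 700 and 1085 in Ribo-seq, 105 and 14 for TE in RPL3L OE against Empty and RPL3 OE, and 1 and 17 in heart RNA-seq and Ribo-seq. TE calls for RPL3 OE against Empty were 13 with library totals, 1 with the 2 groups alone and from 3 to 73 without 1 culture, the highest without RPL3 OE replicate 3. TE calls for RPL3L OE against RPL3 OE were 64 with library totals, 69 with the block and from 8 to 62 without 1 culture, against 41. TE calls for RPL3L OE against Empty fell to 67 without RPL3L OE replicate 3. Without 1 library, calls fell to 823 in RNA-seq (Empty replicate 3) and 966 in Ribo-seq (Empty replicate 2) for RPL3L OE against Empty, and to 17 to 59 in heart Ribo-seq, where the looser filter gave 63.

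*Klhl40* and *Klhl41* in C2C12 cells and *Myod1* and *Myog* in hearts were below the count filter, and *Myog* and *Mef2c* rest on few counts.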
